A study of Mus musculus with 4 samples.

Results

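The 8 genes described here encode the calgranulins (S100a8, S100a9), colony-stimulating factors and a receptor for them (Csf3, Csf3r, Csf1), and products of monocytes and other myeloid cells (Ccr2, Plac8, Cd300lf). They were found as every probe whose gene name in the array files was one of these symbols, which gave 9 probes of 41174 for transcripts, with 2 probes for Ccr2 and 1 for each other gene. Of the 8 genes, 7 passed the filter on dim probes and were among the 19463 genes tested, and Ccr2 did not. The study measured the amygdala, the brain region best known for its part in fear and emotion, of 10-week-old male C57BL/6J mice, taken 6 h after intraperitoneal injection. It asked how loss of the P2X7 receptor (gene P2rx7), a channel of immune cells and glia that opens on binding ATP, bears on gene expression with and without lipopolysaccharide (LPS), a bacterial cell wall component sensed by Toll-like receptor 4. Levels are log2 intensity minus the 75th percentile of each array, so 0 is the level of a fairly bright probe, and a level is compared only within a probe.

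The 4 groups were knockout mice (P2X7R -/-) given LPS, knockout mice given sterile saline, wild-type mice given LPS and wild-type mice given sterile saline, with 4 arrays in each. All were labelled with the same strain, sex and age, and the LPS dose was given both as 7.5 µg per mouse and as 250 µg/kg. The allele behind the knockout was not described in the labels, and single arrays were not tied to single mice, so p-values measure the spread between arrays. The P2rx7 probe with the higher signal ranged from −1.69 to −0.80 over the 8 knockout arrays and from −0.14 to 0.90 over the 8 wild-type arrays, and the other P2rx7 probe overlapped between the genotypes. The part of P2rx7 that the allele removes was not given, so these probes check the label only loosely. As a check of the labelled tissue, 11 of 11 markers of neurons, astrocytes and oligodendrocytes were measured, and their mean level lay between 2.67 and 3.48 on all arrays. Arrays of the knockout and wild-type groups lay on separate slides and were scanned in separate sessions, so genotype and scan session cannot be told apart.

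Wild-type saline replicates 1 and 2, both on slide 1, went against their label and stood apart from wild-type saline replicates 3 and 4, on slide 2. The mean level of 12 leukocyte attractants (chemokines and related factors) was −2.83, −0.97, −1.11 and −2.91 on the wild-type LPS arrays, and −1.51, −1.43, −4.22 and −4.30 on the wild-type saline arrays. Saline replicates 1 and 2 thus lay within the range of the LPS arrays, and LPS replicates 1 and 4 were the lowest LPS arrays. Whether arrays or labels were exchanged in wild type was not tested, and such an exchange would change the meaning of the wild-type LPS values as well as the saline ones in each comparison that uses them. Results that use wild-type saline are given with and without these 2 arrays. Because the 2 arrays were singled out by their levels of genes that differ with LPS, the values without them are a description, and a call made without them is no independent test of LPS. Leaving them out also lowers the pooled spread that the other comparisons use. With 2 arrays left, the spread of that group is taken largely from the other groups.

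Neutrophils and monocytes are blood leukocytes that are scarce in the healthy brain and are drawn to inflamed vessels by chemokines. Neutrophil production and release are driven by granulocyte colony-stimulating factor (Csf3) through its receptor Csf3r, and macrophage colony-stimulating factor (Csf1) acts through Csf1r on monocytes, macrophages and microglia. S100a8 and S100a9 form calprotectin, an abundant cytoplasmic complex of neutrophils and monocytes that is also a ligand of Toll-like receptor 4. In bulk tissue, fewer cells of a type and less RNA per cell cannot be told apart.

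Promoter windows are shown for the 2 calgranulin genes, whose levels moved together over the arrays, and for Csf1 and Cd300lf, which rose after LPS in knockout. The RefSeq table held windows for 7 of the 8 genes, each from 250 bases before to 50 bases after the annotated start (build GRCm38.p6). They run 5′ to 3′ on the strand of the gene, and capitals mark matches to the motifs searched. The S100a8 window is chr3:90668821-90669120 on the plus strand, S100a9 is chr3:90695672-90695971 on the minus strand, Csf1 is chr3:107760420-107760719 on the minus strand and Cd300lf is chr11:115133943-115134242 on the minus strand.
S100a8: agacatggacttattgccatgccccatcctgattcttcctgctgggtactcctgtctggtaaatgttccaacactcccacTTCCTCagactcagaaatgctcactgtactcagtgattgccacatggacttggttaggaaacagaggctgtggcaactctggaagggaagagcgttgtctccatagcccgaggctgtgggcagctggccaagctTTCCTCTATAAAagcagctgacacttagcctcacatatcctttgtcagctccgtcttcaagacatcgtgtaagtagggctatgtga
S100a9: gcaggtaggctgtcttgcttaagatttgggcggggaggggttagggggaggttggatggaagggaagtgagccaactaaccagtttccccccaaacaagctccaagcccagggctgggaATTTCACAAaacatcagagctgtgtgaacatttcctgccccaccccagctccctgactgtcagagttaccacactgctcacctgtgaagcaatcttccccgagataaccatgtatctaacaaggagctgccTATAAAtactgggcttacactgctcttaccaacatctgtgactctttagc
Csf1: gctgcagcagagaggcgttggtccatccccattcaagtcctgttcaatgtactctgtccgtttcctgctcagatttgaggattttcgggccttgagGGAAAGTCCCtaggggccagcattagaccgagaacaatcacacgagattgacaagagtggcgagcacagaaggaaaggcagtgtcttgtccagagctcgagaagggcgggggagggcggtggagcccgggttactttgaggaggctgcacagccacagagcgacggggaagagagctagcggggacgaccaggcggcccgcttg
Cd300lf: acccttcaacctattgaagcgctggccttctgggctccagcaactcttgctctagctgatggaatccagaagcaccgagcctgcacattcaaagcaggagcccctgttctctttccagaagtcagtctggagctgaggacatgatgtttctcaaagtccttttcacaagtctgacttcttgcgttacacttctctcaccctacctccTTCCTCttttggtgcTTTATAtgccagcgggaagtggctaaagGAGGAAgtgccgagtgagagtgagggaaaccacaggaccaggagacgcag

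The motifs were searched on both strands. They were GAGGAA (bound by PU.1-type factors of myeloid cells), TTNNGNAAT (C/EBP factors), TTCNNNGAA (STAT factors), TATAAA and the NF-kB consensus. GAGGAA matched at −170 to −165 and at −36 to −31 in the S100a8 window, next to a TATAAA match at −30 to −25. In the S100a9 window a TTNNGNAAT match lay at −131 to −123 and TATAAA at 1 to 6, counted from the annotated start. The Csf1 window held an NF-kB consensus match at −154 to −145, and the Cd300lf window held GAGGAA at −43 to −38 and at 1 to 6 with TATAAA between them at −28 to −23. In the printed windows, TATAAA read on the gene's strand for S100a8 and S100a9, and on the opposite strand (TTTATA) for Cd300lf. The GAGGAA matches there lay on the opposite strand (TTCCTC), apart from that at 1 to 6 for Cd300lf. The TTNNGNAAT and NF-kB matches there also lay on the opposite strand. No 2 of these matches overlapped. Of all 32851 promoter windows of this length, 28.3% held GAGGAA, 13.6% TATAAA, 11.5% TTNNGNAAT, 8.3% TTCNNNGAA and 5.8% the NF-kB consensus, so most of these matches are common ones. TTCNNNGAA matched in none of the windows of the 7 genes. Among the windows not printed, that of Csf3r, which was not called after LPS, also held an NF-kB consensus match (−129 to −120) and GAGGAA (−86 to −81). A Plac8 window held GAGGAA at −146 to −141 and at −15 to −10, and the Ccr2 window held TTNNGNAAT at −244 to −236. A link between these motifs and the LPS differences was not tested.

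S100a8 had its highest group mean on the knockout LPS arrays. Its probe, at chromosome 3, 90473778 to 90473837 on the plus strand of mm9, had levels of −1.67, −1.58, −2.37 and 0.13 on the knockout LPS arrays and of −3.69, −4.24, −4.24 and −4.04 on the knockout saline arrays. These groups did not overlap, and replicate 4 was the highest of the LPS arrays. On the wild-type LPS arrays its levels were −4.83, −2.22, −2.66 and −3.98, and on the wild-type saline arrays −2.18, −2.18, −6.40 and −6.28. Replicates 1 and 2 of wild-type saline exceeded every wild-type LPS array, and replicates 3 and 4 were not well above background.

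S100a9, the partner of S100a8 in calprotectin, showed a similar pattern at its own probe (chromosome 3, 90496585 to 90496644, minus strand, mm9). Its levels were 1.19, 2.03, 1.46 and 3.31 on the knockout LPS arrays and 0.26, −0.28, −0.52 and −0.33 on the knockout saline arrays. In wild type they were −0.88, 0.91, 0.66 and −0.53 after LPS, and 0.83, 0.97, −3.02 and −2.80 after saline. As intensity, S100a9 read 1396, 1561, 1075 and 5245 after LPS in knockout, against 589.1, 425.2, 404.0 and 276.0 after saline. As intensity in wild type it read 321.5, 1995, 1147 and 401.6 after LPS, against 2047, 1756, 106.2 and 107.2 after saline. On the scaled log2 level the knockout LPS arrays lay above all 12 other arrays, while as unscaled intensity they overlapped the wild-type arrays. Over the 16 arrays the levels of the 2 genes had a Pearson correlation of 0.98 (0.98 in the 8 knockout and 0.99 in the 8 wild-type arrays), a description over arrays that share slides and treatments.

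**Figure D1:**
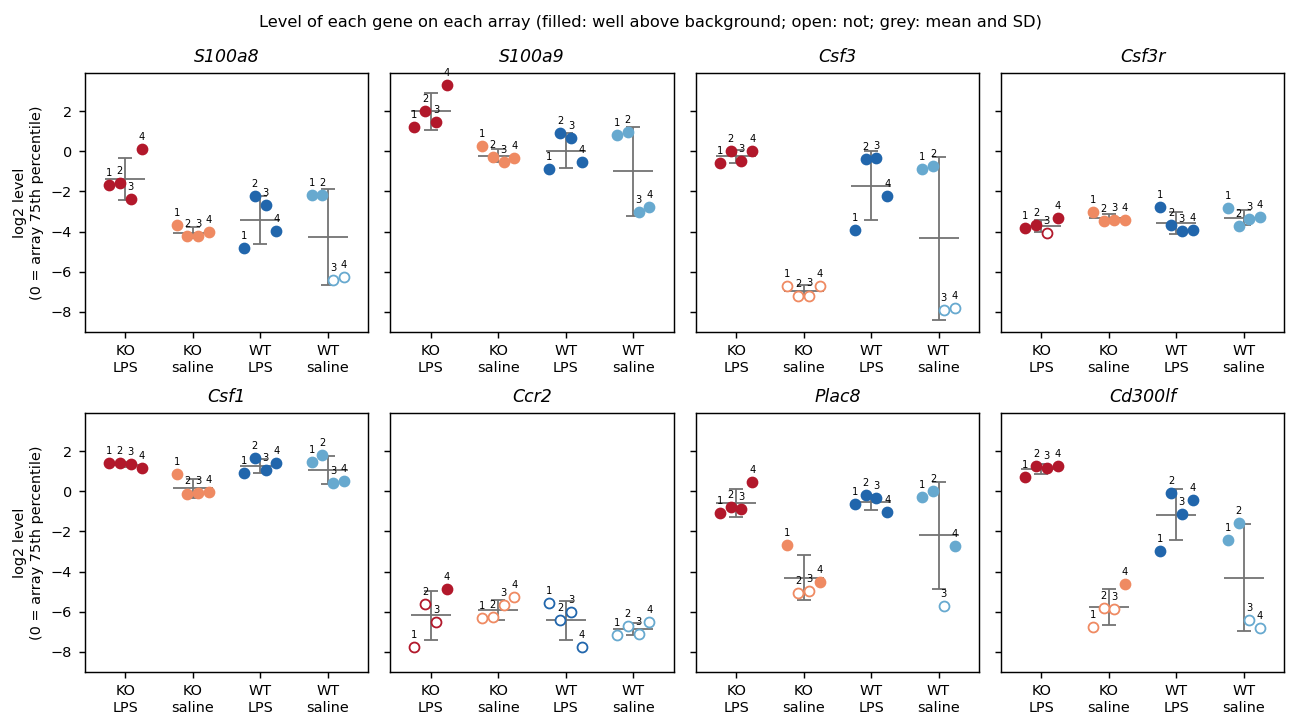
Log2 level of the 8 genes on each of the 16 arrays, minus the array's 75th percentile, with groups along the horizontal axis and replicate numbers above the points; filled points were well above background, open points were not, and grey bars give the group mean and SD. For S100a8, S100a9, Csf3, Plac8 and Cd300lf, wild-type saline replicates 1 and 2 sit near the LPS arrays and replicates 3 and 4 far below them, while Csf3r lies between −4.05 and −2.77 on every array and Ccr2 was well above background on 1 array.

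Of 22 other neutrophil genes on the array, 12 passed the filter on dim probes. Of 7 of the 22 that were picked for display (Ngp, Camp and Ltf, which encode granule proteins, the granule protease Elane, the chemokine receptor Cxcr2, Retnlg and the activating receptor Trem1), 3, 1, 0 and 6 were well above background on knockout LPS replicates 1 to 4, against 0 on each knockout saline array. In wild type the numbers were 0, 3, 0 and 0 after LPS, and 1, 0, 0 and 1 after saline. The array with the highest S100a8 and S100a9, knockout LPS replicate 4, was thus also the one with the most of these markers. Elane was well above background on 0 of 16 arrays, and Ly6g was not analysed here. Mpo, a granule peroxidase, was above background on 15 of 16 arrays and differed by little after LPS in knockout (0.01 ± 0.20, log2 difference ± SE, adjusted p = 0.983).

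**Figure D2:**
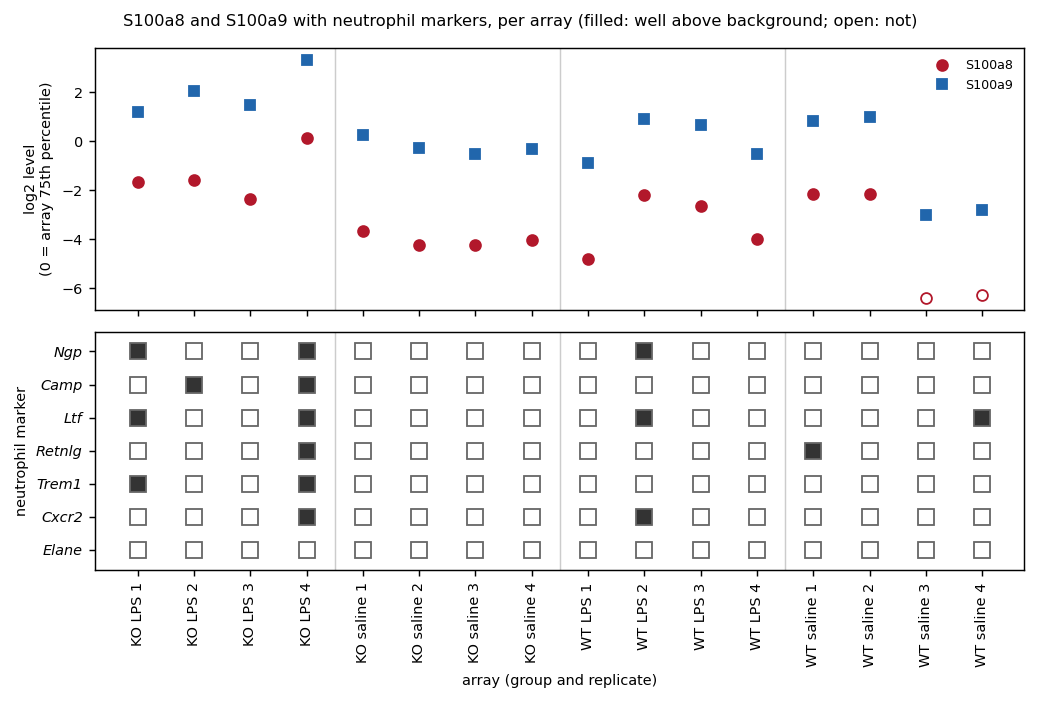
Upper panel, log2 level of S100a8 (circles) and S100a9 (squares) on each array, with open symbols where the probe was not well above background; lower panel, 7 neutrophil markers on the same arrays, filled where well above background. Knockout LPS replicate 4 has the highest level of both genes and 6 of the 7 markers, wild-type LPS replicate 2 has 3 markers, and no knockout saline array has any.

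Csf3, the granulocyte growth factor, was detected on all 4 knockout LPS arrays and on none of the 4 knockout saline arrays. Its probe (chromosome 11, 98564614 to 98564673, plus strand, mm9) had levels of −0.56, 0.02, −0.47 and 0.04 after LPS in knockout, against −6.73, −7.23, −7.19 and −6.71 after saline. In wild type it had −3.93, −0.38, −0.31 and −2.23 after LPS, and −0.88, −0.75, −7.91 and −7.82 after saline. The low pair of the wild-type saline arrays was again replicates 3 and 4, which were not well above background, and wild-type LPS replicates 1 and 4 were the lowest of the LPS arrays.

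Csf3r, the receptor for Csf3, was dim and varied little. Its probe (chromosome 4, 125721294 to 125721353, plus strand, mm9) averaged −3.72 ± 0.30 after LPS and −3.32 ± 0.21 after saline in knockout, and −3.57 ± 0.55 after LPS and −3.30 ± 0.36 after saline in wild type (log2 level, SD, n = 4 each). It was above background on 15 of 16 arrays, the exception being knockout LPS replicate 3. All groups overlapped, and the 95% interval of the LPS difference in knockout ran from −0.95 to 0.15 (log2).

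Csf1, the macrophage growth factor, was bright in all groups, with its probe at chromosome 3, 107544333 to 107544392, on the minus strand of mm9. Its levels were 1.42, 1.40, 1.36 and 1.15 after LPS in knockout, against 0.84, −0.11, −0.10 and −0.04 after saline. In wild type they were 0.90, 1.67, 1.07 and 1.40 after LPS, and 1.45, 1.83, 0.39 and 0.52 after saline. The knockout groups did not overlap, although knockout saline replicate 1 lay far above the other saline arrays.

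Plac8, which encodes a small cysteine-rich protein of myeloid and other cells, was measured at chromosome 5, 100982870 to 100982929 (minus strand, mm9). Its levels were −1.06, −0.78, −0.90 and 0.46 after LPS in knockout, against −2.66, −5.07, −4.99 and −4.52 after saline. The wild-type values were −0.63, −0.20, −0.35 and −1.01 after LPS, and −0.30, 0.00, −5.72 and −2.73 after saline. Knockout LPS replicate 4 was the highest of its group, as for S100a8 and S100a9, and knockout saline replicates 2 and 3 were not well above background.

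Cd300lf encodes an inhibitory receptor of the CD300 family on myeloid cells, and its probe lies at chromosome 11, 114977533 to 114977592, on the minus strand of mm9. It had levels of 0.72, 1.28, 1.14 and 1.25 after LPS in knockout, against −6.78, −5.81, −5.86 and −4.63 after saline, where only replicate 4 was well above background. In wild type it had −2.99, −0.10, −1.12 and −0.42 after LPS, and −2.44, −1.59, −6.42 and −6.80 after saline. The 4 knockout LPS arrays were the highest of all 16. As intensity they read 1011, 933.4, 862.4 and 1255, against 74.51, 986.9, 333.8 and 433.5 on the wild-type LPS arrays.

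Ccr2, the receptor by which inflammatory monocytes follow Ccl2, was at background. The first of its 2 probes (chromosome 9, 124022948 to 124023007, plus strand, mm9) was above background on 1 of 16 arrays, knockout LPS replicate 4, and the second (124023519 to 124023578) on 0 of 16. Levels of the first probe ranged from −7.75 to −4.86 after LPS and from −6.34 to −5.29 after saline in knockout, and from −7.78 to −5.55 after LPS and from −7.16 to −6.53 after saline in wild type. A difference of Ccr2 between groups was therefore not detectable with these probes.

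In the knockout amygdala, 4 of the 7 genes rose after LPS and 0 fell by limma's test (Benjamini-Hochberg adjusted p under 0.05 over all 19463 genes), where 2.49% of all genes were called higher. Csf3 rose at least 25.6-fold (adjusted p = 0.0113), Cd300lf by 6.87 ± 0.97 (log2 difference ± SE, n = 4 per group, adjusted p = 0.00196), Plac8 by 3.74 ± 0.94 (adjusted p = 0.0352) and Csf1 by 1.18 ± 0.31 (adjusted p = 0.0433). Only 1 of the 4 knockout saline arrays was well above background for Cd300lf, so the size of its difference rests largely on dim saline values. The difference was 2.68 ± 0.91 for S100a8 (adjusted p = 0.148) and 2.21 ± 0.81 for S100a9 (adjusted p = 0.188), and neither passed. Csf3r differed by −0.40 ± 0.26 (adjusted p = 0.513). The knockout groups did not overlap for 6 of the 7 genes, all but Csf3r, against 5.1% of all genes with LPS above saline. The median of the 7 differences was 2.68, against −0.09 over all genes tested. Csf3 and Cd300lf passed the filter on dim probes only through the LPS groups, where they were high. Their part in the count and the median is therefore not independent of the filter.

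The call on the calgranulins depended on which arrays entered the estimate of the spread. In a fit to the 8 knockout arrays alone the differences were the same, S100a8 had an adjusted p of 0.00892 and S100a9 of 0.0164, and 6 of the 7 genes were called, where 2.88% of all genes were called higher. Both were called within slide 3 (S100a8 2.12 ± 0.27, S100a9 1.74 ± 0.16), where 2.93% of all genes were called higher, but not within slide 4 (3.24 ± 0.61 and 2.68 ± 0.53), where 0.853% were, each slide with 2 LPS and 2 saline arrays. Without knockout LPS replicate 4, in an alternative added after the values were seen, S100a8 differed by 2.18 ± 0.25 (adjusted p = 0.00192) and S100a9 by 1.77 ± 0.27 (adjusted p = 0.00817) over the other knockout arrays. With each array left out of the fit to all arrays, neither calgranulin was called in any of the 16 fits. There the adjusted p ran from 0.101 to 0.263 for S100a8 and from 0.126 to 0.344 for S100a9. Of the other alternatives, with those given here among them, S100a8 was called in 4 of 13 and S100a9 in 4 of 14. Without wild-type saline replicates 1 and 2, whose only effect on this comparison is through the pooled spread, 6 of the 7 genes were also called, where 3.12% of all genes were called higher. With normexp, another background correction, Csf3 (1.80 ± 0.75, adjusted p = 0.0869) and Plac8 (1.36 ± 0.66, adjusted p = 0.135) were not called and the S100a8 difference was 0.73 ± 0.54, and over all genes 187 were called higher and 237 lower, against 485 and 226 without it. Cd300lf stayed called with normexp, at a smaller difference of 2.91 ± 0.55 (adjusted p = 0.0125). Plac8 and Csf1 lost their call when any knockout array other than saline replicate 1 was left out of the fit to all arrays (3.40 to 3.90 for Plac8, adjusted p from 0.0714 to 0.10, and 1.1 to 1.24 for Csf1, adjusted p from 0.059 to 0.121). Csf1 also lost it without wild-type LPS replicate 3 or 4 (adjusted p = 0.0545 and 0.0552).

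**Figure D3:**
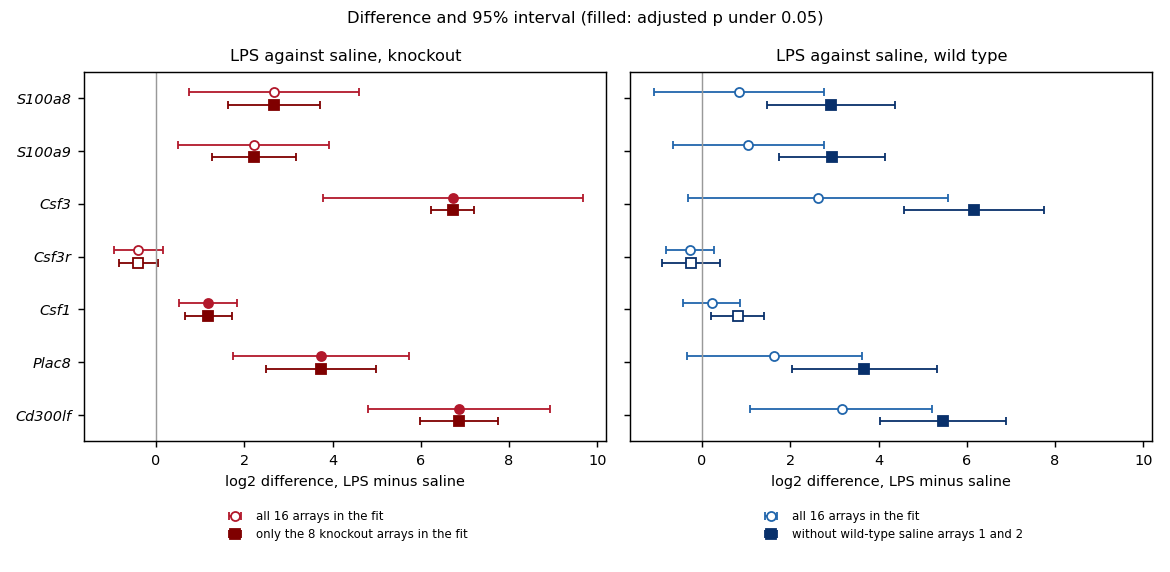
Log2 difference, LPS minus saline, with its 95% interval for the 7 genes tested, in knockout (left) and wild type (right); filled symbols have an adjusted p under 0.05. In knockout the differences are the same in both fits and 6 genes are called with the 8 knockout arrays alone; in wild type no gene is called with all arrays and 5 are past the threshold without saline replicates 1 and 2, which were chosen by their levels. Where a saline group was at background (Csf3 in knockout; S100a8, Csf3 and Cd300lf on the remaining wild-type saline arrays), the plotted difference is the fitted one and not a bound.

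In the wild-type amygdala, 0 of the 7 genes were called after LPS by limma (1 at an unadjusted p under 0.05), where 0.0103% of all genes were called in either direction. The differences were 0.84 ± 0.91 for S100a8, 1.04 ± 0.81 for S100a9, 2.63 ± 1.39 for Csf3, 0.22 ± 0.31 for Csf1, 1.64 ± 0.94 for Plac8 and 3.16 ± 0.97 for Cd300lf, with adjusted p from 0.552 to 0.971. Csf3r differed by −0.28 ± 0.26 (adjusted p = 0.922). No gene separated LPS from saline on all arrays.

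Without wild-type saline replicates 1 and 2, 5 of the 7 genes were past the threshold for LPS in wild type, where 1.91% of all genes were called higher. This count follows in part from the choice of the arrays left out. Csf3 was at least 16.7-fold, Cd300lf at least 24.5-fold and S100a8 at least 5.11-fold higher on the LPS arrays, with the 2 remaining saline arrays at background for each. The difference was 2.95 ± 0.56 for S100a9, 3.68 ± 0.76 for Plac8 and 0.81 ± 0.28 for Csf1. Within slide 1, which holds the saline arrays left out, the difference was below 0 for all 7 genes (S100a8 −1.56 ± 0.75, Csf1 −0.65 ± 0.22, Csf3 −1.30 ± 1.23) and none was called. Within slide 2, Csf3 and Cd300lf were called (adjusted p = 0.0282 and 0.0135), where 0.961% of all genes were called higher, and the other positive differences ran from 1.09 ± 0.18 for Csf1 to 3.62 ± 1.01 for Plac8.

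**Figure D4:**
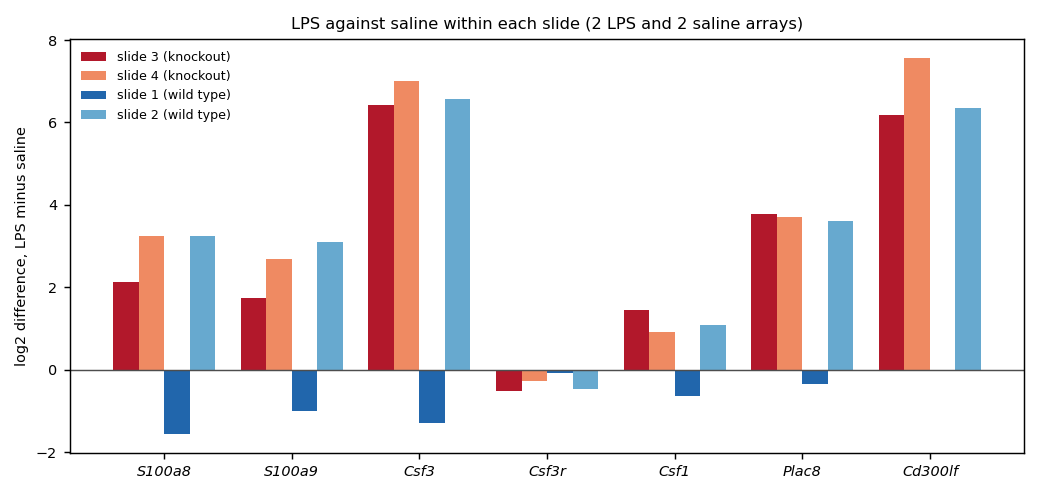
Log2 difference, LPS minus saline, of the 7 genes within each slide of 2 LPS and 2 saline arrays, knockout slides 3 and 4 and wild-type slides 1 and 2. Apart from Csf3r, the genes are positive on slides 3, 4 and 2 and below 0 on slide 1, where S100a8 reads −1.56 and Csf3 −1.30.

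Between knockout and wild type after LPS, 0 of the 7 genes were called by limma over all arrays (3 at an unadjusted p under 0.05), where 25.9% of all genes were called higher in knockout. Cd300lf differed by 2.26 ± 0.97 (log2 difference ± SE, adjusted p = 0.0682), S100a8 by 2.05 ± 0.91 (adjusted p = 0.0753) and S100a9 by 1.95 ± 0.81 (adjusted p = 0.0578). For Cd300lf and S100a9 every knockout LPS array lay above every wild-type LPS array, as for 28.2% of all genes. Csf3 (1.47 ± 1.39), Csf1 (0.07 ± 0.31), Plac8 (−0.02 ± 0.94) and Csf3r (−0.14 ± 0.26) had adjusted p of 0.402 or more, and the 95% interval for Plac8 ran from −2.01 to 1.97. With only the LPS groups in the fit, S100a8, S100a9 and Cd300lf were called (adjusted p = 0.0249, 0.0122 and 0.00682), where 29.7% of all genes were called higher, and the same 3 were called without wild-type saline replicates 1 and 2, where 27.5% of all genes were. Leaving out any 1 wild-type saline array also gave a call for S100a9 (adjusted p from 0.0356 to 0.0423), and leaving out replicate 2 or 4 gave one for Cd300lf (adjusted p = 0.0351 and 0.0421).

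After saline, Csf1 was lower in knockout by the test over all arrays (−0.90 ± 0.31, adjusted p = 0.0241) and the other 6 genes were not called, where 22.6% of all genes were called lower. Csf3, Plac8 and Cd300lf had differences of at least 1.49-fold lower, −2.12 ± 0.94 and −1.46 ± 0.97, with adjusted p of 0.125, 0.0698 and 0.224. Without wild-type saline replicates 1 and 2, Csf1 differed by −0.30 ± 0.28 (adjusted p = 0.42) and Plac8 by −0.08 ± 0.76 (adjusted p = 0.945), and no fold could be given for Cd300lf or Csf3, whose remaining wild-type saline arrays were at background. The Csf1 call was also lost without knockout saline replicate 2, 3 or 4 or wild-type saline replicate 1 or 2 (−0.83 to −0.63, adjusted p from 0.055 to 0.09). Csf3 was called without wild-type saline replicate 3 or 4 (adjusted p = 0.0254 and 0.0287), and Plac8 without wild-type saline replicate 3 (−3.30 ± 0.65, adjusted p = 0.000934) or knockout saline replicate 1 (−2.67 ± 0.99, adjusted p = 0.0365). With normexp background correction, Csf1 was not called (−0.35 ± 0.25, adjusted p = 0.232) and Csf3r was higher in knockout (1.22 ± 0.29, adjusted p = 0.00174, where 44.6% of all genes were called higher and the split over all genes was 8681 higher and 3209 lower, compared with 5542 and 4390 without normexp), against −0.03 ± 0.26 in the fit without it. Without the 2 arrays, both calgranulins were past the threshold, with S100a9 at 2.69 ± 0.56 and S100a8 at least 3.30-fold higher in knockout, where 19.8% of all genes were called higher, and these values too follow in part from the choice of arrays. With all arrays their differences were 0.78 ± 0.81 and 0.21 ± 0.91. Both genotype comparisons carry the difference in scan session.

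**Figure D5:**
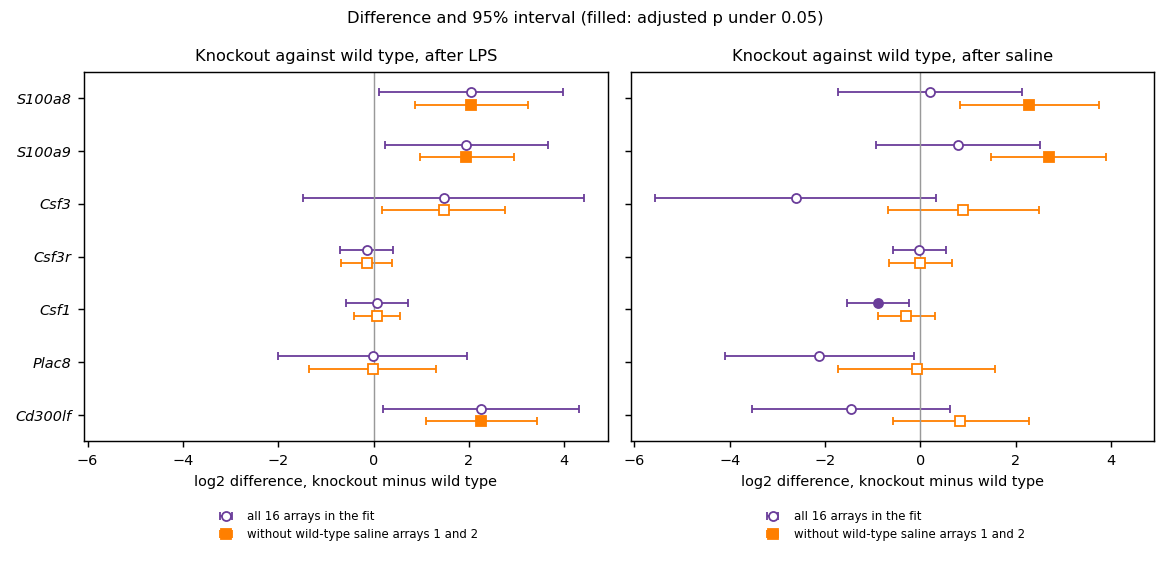
Log2 difference, knockout minus wild type, with its 95% interval for the 7 genes tested, after LPS (left) and after saline (right), with all arrays (circles) and without wild-type saline replicates 1 and 2 (squares); filled symbols have an adjusted p under 0.05. After saline, the called gene is Csf1 with all arrays and the called genes are S100a8 and S100a9 without the 2 arrays; after LPS the differences are the same in both fits. After saline, Csf3 with both sets of arrays and S100a8 and Cd300lf without the 2 arrays rest on a group at background, so their plotted values are fitted ones.

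The interaction, which subtracts the wild-type LPS difference from the knockout one, was called for 0 of the 7 genes by limma (0.036% of all genes were called in either direction, and 2 of the 7 had an unadjusted p under 0.05). It was 3.71 for Cd300lf (95% interval 0.79 to 6.64, adjusted p = 0.587), 2.10 for Plac8 (−0.71 to 4.91), 1.84 for S100a8 (−0.89 to 4.57), 1.17 for S100a9 (−1.26 to 3.59) and 0.97 for Csf1 (0.04 to 1.89, adjusted p = 0.691). The fitted value for Csf3 is not given, since its knockout saline arrays were at background. Without wild-type saline replicates 1 and 2 the interaction was 0.06 for Plac8 (−2.05 to 2.17) and turned to −0.73 for S100a9 (−2.29 to 0.82), and S100a8, Csf3 and Cd300lf had no measured wild-type saline level. These intervals are wide, so a difference in response between the genotypes was not shown and neither was its absence.

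Among 20 measured genes of the colony-stimulating factor pathway (with Csf1, Csf3 and Csf3r among them), 7 rose and 0 fell after LPS in knockout, where 2.49% of all genes rose and 1.16% fell. Beside the 2 growth factors these were the cytokine signalling inhibitor Socs3 (3.73 ± 0.62, adjusted p = 0.00327), the transcription factor Stat5a (2.56 ± 0.61), the receptor beta chains Csf2rb2 (2.45 ± 0.43) and Csf2rb, and Cebpb, a transcription factor of myeloid cells. The median difference of the list was 0.40. Csf3 passed the filter on dim probes only through the LPS groups, so the count of rising genes is not independent of the filter. Csf1r, the receptor for Csf1, differed by 0.01 ± 0.36 (adjusted p = 0.994) and Il34, its other ligand, by −0.35 ± 0.22 (adjusted p = 0.506). In wild type 0 of 20 were called (2 at an unadjusted p under 0.05). Without saline replicates 1 and 2, 4 were past the threshold, all higher, where 1.91% of all genes were called higher.

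Of 12 measured leukocyte attractants, 7 rose and 1 fell after LPS in knockout, where 2.49% of all genes rose and 1.16% fell. Their median difference was 4.12 when genes at background were set at their bound. Ccl2, the main ligand of Ccr2, rose by 8.74 ± 1.44 (adjusted p = 0.00327), and Cxcl1, a neutrophil attractant acting through Cxcr2, rose at least 39.9-fold (adjusted p = 0.0158). Ccl5, a chemokine for monocytes and T cells, rose by 7.15 ± 1.32 (adjusted p = 0.0062). The other Ccr2 ligands Ccl7 (at least 24.9-fold, adjusted p = 0.00342) and Ccl12 (3.86 ± 0.78, adjusted p = 0.01) also rose. Cxcl1 and Ccl7 passed the filter on dim probes only through the LPS groups, so the count of rising attractants is not independent of the filter. Cxcl12, which retains leukocytes in the bone marrow, fell by 2.58 ± 0.48 (adjusted p = 0.00629). Ccl4, a chemokine for monocytes and other leukocytes named here for its interaction, was the 1 gene of the 12 with a called interaction (4.86 ± 0.77, adjusted p = 0.0462), and lost that call without wild-type saline replicates 1 and 2 (4.24 ± 0.84, adjusted p = 0.17). Cxcl2 was above background on 4 of 16 arrays and was not tested. In wild type 0 of 12 were called (1 at an unadjusted p under 0.05), and without saline replicates 1 and 2, which were chosen by the mean level of these same genes, 4 were past the threshold as higher and 1 as lower, against 1.91% and 1.22% of all genes, a description with no weight as a test.

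Of 12 measured neutrophil markers, which do not include the 8 genes, 3 rose and 0 fell after LPS in knockout, where 2.49% of all genes rose and 1.16% fell, with a median difference of 2.18 (1.15 with genes at background set at their bound). With the 8 knockout arrays alone 7 of the 12 rose, where 2.88% of all genes did. Without wild-type saline replicates 1 and 2 the number was also 7, where 3.12% of all genes rose. The 3 were Hp, the plasma haptoglobin (4.13 ± 0.86, adjusted p = 0.0122), Fpr2, a formyl peptide receptor (at least 2.63-fold, adjusted p = 0.0109), and Chi3l3, a chitinase-like protein of macrophages and neutrophils (2.91 ± 0.67, adjusted p = 0.0219). The mean level of the list ranged from −2.97 to −2.0 after LPS and from −4.82 to −4.13 after saline in knockout, and from −4.04 to −3.17 after LPS and from −5.51 to −3.06 after saline in wild type. Of 25 measured monocyte markers, 10 rose and 1 fell in knockout, with a median of 0.31 with bounds. Clec4d and Clec4e, C-type lectin receptors of myeloid cells, rose at least 6.47-fold and 6.15-fold, Cd14, a co-receptor for LPS, rose by 3.72 ± 0.62 (adjusted p = 0.00336), and Ms4a4c rose at least 3.73-fold. Fpr2, Clec4d, Clec4e and Ms4a4c passed the filter on dim probes only through an LPS group. The counts of rising neutrophil and monocyte markers are therefore not independent of the filter. Both lists were chosen with earlier results of these data known. F13a1, a coagulation factor subunit of monocytes and macrophages that the perivascular macrophage list also holds, fell by 0.93 ± 0.20 (adjusted p = 0.0166). The 14 monocyte markers not called ran from 1.53 ± 0.50 for Thbs1 (adjusted p = 0.129) to −1.16 ± 0.31 for Cx3cr1 (adjusted p = 0.052). Among them were Ly6c2 (0.04 ± 0.28), Ly6c1 (−0.45 ± 0.35) and Lyz2 (−0.49 ± 0.24). In wild type 0 of the 12 and 0 of the 25 were called (2 and 4 at an unadjusted p under 0.05), and without saline replicates 1 and 2, 4 and 9 were past the threshold as higher and none as lower, against 1.91% and 1.22% of all genes.

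Relatives of the calgranulins and of Cd300lf were set beside them for LPS in knockout. Of 6 measured CD300 family members and their adaptors, and of 14 other S100 genes and calgranulin receptors, 0 were called after LPS in knockout by limma (1 and 2 at an unadjusted p under 0.05) in the fit to all arrays. Of all genes, 2.49% were called higher and 1.16% lower in that fit. With the 8 knockout arrays alone, or without wild-type saline replicates 1 and 2, 0 of the 6 and 1 of the 14 were called, the last as higher. The shares of all genes called higher there were 2.88% and 3.12%. Tlr4, a receptor for the calgranulins and for LPS, differed by 0.45 ± 0.26 (adjusted p = 0.452). Ager, another receptor for them, was above background on 2 of 16 arrays.

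Markers of other cells moved too. In knockout after LPS, where 2.49% of all genes rose and 1.16% fell, 0 of 15 microglial markers rose and 4 fell, led by Gpr34 (at least 4.68-fold lower, adjusted p = 0.014), 0 of 9 perivascular macrophage markers rose and 5 fell, led by the lectin Cd209f (−3.00 ± 0.45, adjusted p = 0.00223), and of 13 endothelial markers 1 rose (the adhesion molecule Icam1, 3.56 ± 0.58) and 3 fell. Red cell genes, a sign of blood in the tissue, had a mean level of 1.05 to 1.85 after LPS and of 2.17 to 2.95 after saline in knockout, and 0 of 6 were called (4 at an unadjusted p under 0.05). In wild type their level was 1.35 to 1.77 after LPS, and 1.55, 1.58, 3.18 and 1.91 on saline replicates 1 to 4. Slc4a1, the dimmest of these genes, had a missing value in the wild-type saline group, and a mean that skips it is raised. The value of 3.18 is therefore no sign of more blood in that sample. Hba-a1, an alpha globin, differed by −0.73 ± 0.24 after LPS in knockout (adjusted p = 0.126). Of 7 lymphocyte genes 0 were called after LPS in either genotype, with 2 at an unadjusted p under 0.05 in knockout and 0 in wild type. The part of these markers in the differences above was not tested.

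Over the 16 arrays, the genes whose log2 levels were most like those of each member among 14245 genes were found as a description. These arrays share treatments and slides. For S100a8 they were S100a9 (Pearson r of 0.981), Mrap (0.974) and Tnfrsf1a (0.973), and for Csf3 they were Cxcl1 (0.993), Saa2 (0.993) and Plaur (0.992). Cd300lf was most like Phf11a (0.978), Irgm1 (0.972) and Apol9a (0.97), Plac8 like Ifitm3 (0.946), Helz2 (0.943) and Tor3a (0.943), and Csf1 like Helz2 (0.948), Sbno2 (0.937) and Fyb (0.925). Csf3r stood apart from the other members, with correlations of −0.17 to −0.54 to them, and was most like Rps26 (0.863), Dynll1 (0.842) and Crebl2 (0.84).

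The authors' deposited table of fold changes held 6 of the 9 probes, without those of Csf3r and Ccr2. In the authors' deposited table, LPS against saline in knockout was 6.43-fold up for S100a8, 4.64-fold for S100a9, 106-fold for Csf3, 2.27-fold for Csf1, 13.6-fold for Plac8 and 120-fold for Cd300lf. LPS against saline in wild type was 1.79-fold up for S100a8, 2.06-fold for S100a9, 6.19-fold for Csf3, 1.16-fold for Csf1, 3.12-fold for Plac8 and 8.91-fold for Cd300lf in the authors' deposited table. After LPS, knockout against wild type was up 4.14-fold for S100a8, 3.88-fold for S100a9, 4.79-fold for Cd300lf, 2.78-fold for Csf3 and 1.05-fold for Csf1, and down 1.01-fold for Plac8, in the authors' deposited table. After saline it was up 1.15-fold for S100a8 and 1.73-fold for S100a9 in the authors' deposited table. It was down 6.16-fold for Csf3, 1.86-fold for Csf1, 4.41-fold for Plac8 and 2.81-fold for Cd300lf in the authors' deposited table. The wild-type values in the authors' deposited table come from all 4 saline arrays. The Csf3 values for LPS in knockout, and for knockout against wild type after saline, use a knockout saline level at background.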

How the data were processed

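The members and gene lists were chosen with earlier results of these data known, and lists of pathway genes and cell markers support nothing beyond their counts. RNA of 4 groups of 4 arrays was hybridised to 1-colour arrays of 42591 spots, of which 1417 were controls. Per the submitters' processing notes and the file headers, spots were read with Agilent Feature Extraction 9.5, and the deposited intensity is background-subtracted and detrended within each array, on a linear scale, with no scaling between arrays. The authors' deposited tables hold a log2 value averaged over the arrays of each group and a linear fold change (ratio of group means) for 4 comparisons. How those log2 values were centred is not given in the sources used here. The 32 columns of detection calls in them were not used.

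Control spots were left out, and outlier spots (at most 79 per array) were set to missing. No spot was saturated. Values are log2 intensity minus the 75th percentile of the array, which ranged from 345.9 to 614.0 in knockout and from 580.8 to 1152.5 in wild type, and 58.1% to 71.9% of probes were flagged well above background. Precision is limited by how many arrays each group has. The smallest median absolute difference between a pair of arrays was 0.12 (log2), and none was taken as a copy. A probe was kept where it was well above background on at least 3 of 4 arrays of at least 1 group (28347 probes). Some genes passed only through an LPS group, among them Csf3, Cd300lf, Cxcl1, Ccl7, Fpr2, Clec4d, Clec4e and Ms4a4c. Counts of rising genes that include them are not independent of this filter. Through RefSeq accessions, 24844 probes were named, and others kept the file's name. Each gene was represented by its kept probe with the highest mean. Under R 4.3.3, limma 3.58.1 (with statmod 1.5.0) was fitted to 4 group means over all 16 arrays (lmFit, eBayes) and gave 5 comparisons, with Benjamini-Hochberg adjustment over 19463 genes and calls at an adjusted p under 0.05. The steps were tested on simulated data. Differences are log2 ± SE of the model.

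Where a probe was well above background on no array of a group, a bound is given as "at least N-fold". It sets the bright group's mean against the dim group's mean of, per array, its own signal or, if higher, the smallest signal that any detected probe had there. Genes named were the 8 members with all their probes, at most the 4 called genes with the largest difference in each list, the ligands and receptors of members, defining markers, and the 3 genes most like each member (above background on at least 8 arrays). Retnlg, Trem1, Csf2rb, Cebpb, Cxcl12, Ccl4, F13a1, Thbs1, Cx3cr1, Ly6c1, Ly6c2 and Lyz2 fall outside this rule and were chosen from the lists after their values were seen. Replicate numbers come from the array labels. They do not pair samples. Probe coordinates are on mm9 and promoters on RefSeq's GRCm38.p6, with no coordinates converted.

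Alternatives were quantile and median scaling, normexp background correction (offset 50), no filter, a filter on all 16 arrays, every kept probe, only the groups compared, slide as a fixed or random block, within slides, a replicate block, leaving out each array, and leaving out wild-type saline replicates 1 and 2.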

Additional observations from a re-analysis of the deposited data

Results flagged for a closer look

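Among the 28 sets of 4 arrays tested for the 7 genes, 2 had an array that lay far from the other 3 by Dixon's criterion, both in knockout saline replicate 1. Chance marks about 1 in 20 such sets. For Csf1 that array read 0.84, with the nearest at −0.04 and the lowest at −0.11 (gap over range 0.931). For Csf3r it read −3.01, with the nearest at −3.41 and the lowest at −3.46 (0.883). Plac8 was also highest on that array among the knockout saline arrays, at −2.66 against −4.52 for the next.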

How the results depend on the processing

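The fit over all arrays called 4 of the 7 genes for LPS in knockout, 0 for LPS in wild type, 0 for knockout against wild type after LPS, 1 after saline and 0 for the interaction. For LPS in knockout the number was 2 with normexp, 2 with no filter, 2 within slide 4, 1 with the filter on all 16 arrays (which only S100a9 and Csf1 pass), and from 2 to 4 with each array left out. For LPS in wild type it was 2 within slide 2 and 5 without wild-type saline replicates 1 and 2. For knockout against wild type after LPS it was 1 with normexp, 3 with only the groups compared, 3 without those 2 arrays, and 0 to 2 with each array left out. After saline it was 0 with only the groups compared, 0 with slide as a random block, 2 without those 2 arrays, and 0 to 3 with each array left out. With the replicate block the numbers were 4, 0, 0, 1 and 0, so it moved no count of calls. Same-numbered arrays of LPS and saline deviated together with correlations from −0.38 to 0.34, so numbers did not pair them.

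Over all genes, LPS in knockout gave 711 calls, against 424 with normexp, 178 within slide 4 and 428 to 754 with each array left out. LPS in wild type gave 2, against 610 without wild-type saline replicates 1 and 2, 244 within slide 2 and 0 to 19 with each array left out, and the interaction gave 7, against 0 with normexp, 1 without those arrays, 17 with slide as a random block and 0 to 11 with each array left out. After saline, knockout against wild type gave 9932, against 6958 without those arrays.

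Signs turned in these settings. Without wild-type saline replicates 1 and 2 they were, for knockout against wild type after saline, Csf3 0.90, Cd300lf 0.84 and Csf3r 0.00, and for the interaction S100a8 −0.24 and S100a9 −0.73. Of these, the values for Csf3, Cd300lf and S100a8 are fitted to wild-type saline arrays at background and carry no direction. With normexp they were, for knockout against wild type, Csf3r 0.38 after LPS, and Csf3r 1.22, Csf3 0.09 and Cd300lf 0.68 after saline. Normexp moved the median difference of all genes after saline to 0.44, against 0.07, and in knockout after LPS to −0.22, against −0.09. Within slide 1, LPS in wild type read S100a8 −1.56, S100a9 −1.01, Csf3 −1.30, Csf1 −0.65, Plac8 −0.35 and Cd300lf −0.04. With each array left out, ranges that cross or reach 0 were −0.27 to 0.15 for Csf3r in the interaction, −0.05 to 0.21 for Csf1, −0.28 to 0.12 for Csf3r and −0.36 to 0.14 for Plac8 between genotypes after LPS, −0.16 to 0.13 for Csf3r and −0.51 to 0.90 for S100a8 after saline, and 0.00 to 0.48 for Csf1 with LPS in wild type. The cause was not tested. Dim probes limit Csf3, Ccr2, Csf3r and the saline levels of Cd300lf and Plac8.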
